A study of Mus musculus with 54 samples.

Results

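Cold-dissociated C57BL/6J kidney cells that had been cryopreserved were compared with freshly profiled cells of the same suspensions. The members were chosen by their labels: 3 cryopreserved and 3 fresh single-cell libraries of 54 samples in the series, with 3519 and 11851 cells, 15370 in all. The kidneys came from male AFAPIL.1DEL C57BL/6J littermates of 19 weeks, in both groups, and were dissociated on ice with a protease of B. licheniformis that works in the cold. Part of each suspension was loaded at once. Another part was frozen in serum, RPMI-1640 and DMSO, kept in liquid nitrogen for 6 weeks, thawed in a warm water bath, spun, washed and loaded. Libraries with the same replicate number are aliquots of 1 suspension, which the prefix of their cell barcodes shows. All 6 were made with 10x v2 chemistry. The whole study set dissociation, preservation and single-nucleus protocols for mouse kidney side by side, with warm-dissociated C57 and cold-dissociated Balb/c cells as the experiments most like this one.

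The kidney is built of nephrons and a collecting system. A glomerulus with podocytes filters blood into a tubule, whose proximal part takes back most of the filtrate and is packed with mitochondria. The ascending loop of Henle, distal convoluted tubule and connecting tubule follow, and principal and intercalated cells of the collecting duct set the final water, salt and acid content. Endothelial cells, mesangial and mural cells and resident immune cells lie around these segments. Cells that meet heat, cold, enzymes or loss of attachment can switch on immediate-early genes such as Fos and Jun, which need no new protein to be transcribed and encode the AP-1 transcription factors, and heat shock genes such as Hspa1a, which encode chaperones that hold unfolding proteins.

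The number of cells, the unit of every share given here, was lower after cryopreservation in each suspension. The fresh libraries held 2356, 4084 and 5411 cells and the cryopreserved ones 897, 1629 and 993, so that the groups did not overlap. The means were 3950 ± 1530 and 1173 ± 398 (SD, n = 3), and the exact two-sided permutation test over libraries gave p = 0.1, the smallest it can give with 3 against 3. Replicate 3 kept the smallest part, with 18.4 cryopreserved cells per 100 fresh ones, against 38.1 and 39.9 in replicates 1 and 2. Numbers of cells also depend on loading and on the filters of the authors. Libraries shared between 2 and 28 barcodes with each other. The cells held a median of 1396, 1525 and 1192 UMIs (unique molecules counted) in the fresh libraries and of 1609, 1317 and 1482 in the cryopreserved libraries, so that depth per cell overlapped. The median share of mitochondrially encoded UMIs per cell was 28.8, 34.4 and 36.1% in fresh and 14.7, 11.9 and 11.03% in cryopreserved libraries. Outside the proximal tubule it was 21.6, 26.9 and 29.0% against 14.7, 11.9 and 10.98%, again without overlap (exact p = 0.1). This pooled value depends on the mix of classes. Within B cells, T cells, dendritic cells, endothelial cells and principal cells the groups overlapped, and cryopreserved replicate 1 lay above fresh replicate 1, at 17.5 against 14.4% in B cells and 15.3 against 14.2% in endothelial cells.

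Cells were clustered and sorted into 17 classes by marker genes, with 1 further cluster left unnamed. A class is called by the cell type it is like, for example the endothelial class by Pecam1, Kdr and Plvap, macrophages by C1qa, C1qb and C1qc, podocytes by Wt1 and Synpo, the ascending loop of Henle by Slc12a1 and Umod, and principal cells by Aqp2 and Aqp3. The unnamed cluster was led by Cp, C3 and Rasl11b. Proximal tubule cells were almost absent after cryopreservation. They made up 70.2, 58.8 and 64.3% of the fresh libraries, with 1654, 2402 and 3479 cells. In the cryopreserved libraries only 3, 2 and 8 cells fell in the proximal tubule class, or 0.334% (95% Wilson interval, 0.114 to 0.979%), 0.123% (0.0337 to 0.447%) and 0.806% (0.409 to 1.58%). These intervals cover counting error only. The mean share fell from 64.4 ± 5.70% to 0.421 ± 0.350% (SD, n = 3), a ratio of 153 between fresh and cryopreserved (log2 difference -7.38 ± 0.46 SE, edgeR's quasi-likelihood test on numbers of cells with Benjamini-Hochberg adjustment, adjusted p = 2.89e-24).

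Since shares of all cells sum to a fixed total, the other classes were also measured against the cells outside the proximal tubule. In that total, 2 tubule segments were the most depleted. The ascending loop of Henle, which carries the Na-K-Cl cotransporter gene Slc12a1, fell from 8.40, 7.13 and 8.28% to 1.01, 1.91 and 1.83% (log2 difference -2.28 ± 0.28, adjusted p = 2.7e-05). The distal convoluted tubule, which carries the Na-Cl cotransporter gene Slc12a3, fell from 9.83, 6.36 and 6.42% to 1.12, 1.91 and 1.02% (-2.38 ± 0.32). Podocytes fell from 7.69, 8.80 and 7.82% to 2.91, 3.32 and 4.57% (-1.18 ± 0.25, adjusted p = 0.0015). For these 3 classes each cryopreserved share lay below each fresh share, and the calls held without any 1 library.

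Connecting tubule and intercalated cells were also called lower, with log2 differences of -0.89 ± 0.31 (adjusted p = 0.026) and -0.77 ± 0.26 (adjusted p = 0.021). Their shares were 9.40, 7.97 and 7.66% against 2.13, 6.27 and 4.57%, and 5.84, 6.60 and 8.59% against 3.24, 4.43 and 4.77%. Each call was lost on leaving out any of 3 libraries. For the connecting tubule these were fresh replicate 1 (-0.81), fresh replicate 2 (-0.93) and cryopreserved replicate 1 (-0.59), and for intercalated cells fresh replicate 2 (-0.82), fresh replicate 3 (-0.58) and cryopreserved replicate 1 (-0.64). Principal cells overlapped between the groups (4.56, 4.46 and 2.74% against 2.57, 3.69 and 1.73%) and were not called (-0.48 ± 0.32, adjusted p = 0.21). The 5 tubule and duct classes together made up 38.0, 32.5 and 33.7% of the fresh cells outside the proximal tubule and 10.1, 18.2 and 13.9% of the cryopreserved ones (exact p = 0.1). Of all cells they were 12.3 ± 1.05% and 14.0 ± 4.07%, which overlap (exact p = 0.6).

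Leukocytes made up a larger share of the cryopreserved libraries. The 7 leukocyte classes were 9.51, 13.4 and 12.1% of all fresh cells and 53.3, 45.4 and 52.2% of all cryopreserved cells. Outside the proximal tubule they were 31.9, 32.5 and 33.9% against 53.5, 45.5 and 52.6% (exact p = 0.1 in both totals). Within the second total, monocytes, which carry Plac8 and Hp, went from 1.14, 3.15 and 1.86% to 6.82, 6.21 and 6.70% (log2 difference 1.59 ± 0.31, adjusted p = 0.00087). Neutrophils, which carry S100a8 and S100a9, numbered 0, 6 and 7 cells in the fresh and 15, 16 and 27 in the cryopreserved libraries (2.50 ± 0.55, adjusted p = 0.0017). Both groups of shares were separate in these 2 classes.

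B cells rose from 6.70, 7.49 and 4.81% to 14.3, 11.2 and 9.34% (0.88 ± 0.26, adjusted p = 0.012) and T cells from 3.85, 5.47 and 6.00% to 9.06, 7.87 and 9.34% (0.74 ± 0.24, adjusted p = 0.021). The B cell call was lost without fresh replicate 3 (0.70), and the T cell call without fresh replicate 1 (0.60) or fresh replicate 2 (0.78). Macrophages were not called (0.12, adjusted p = 0.64). NK cells went the other way without overlap, from 0.855, 0.951 and 0.932% to 0.447, 0.676 and 0.508%, and were not called (-0.70 ± 0.38, edgeR adjusted p = 0.13). Dendritic cells were 1.57, 2.32 and 2.95% against 3.13, 3.38 and 5.48%, which do not overlap but were not called (0.73 ± 0.31, edgeR adjusted p = 0.058). Endothelial cells were 17.2, 19.98 and 19.1% against 25.6, 26.2 and 24.2%, which do not overlap but were not called (0.43 ± 0.20, adjusted p = 0.079).

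Over all classes, 9 of 17 shares outside the proximal tubule passed the test (52.9%), 4 higher and 5 lower. In the total of all cells 15 of 18 passed (83.3%), 12 higher and 3 lower. Several directions depended on the scaling. With TMM factors, which set the middle of the classes to no change, the same fit on all cells called 3 classes higher and 7 lower, and outside the proximal tubule it called 2 higher and 6 lower. Monocytes and neutrophils were called higher, and the ascending loop of Henle, distal convoluted tubule and podocytes lower, in both totals and under both scalings, except podocytes in the total of all cells without TMM factors (0.29, adjusted p = 0.39). In that total without TMM factors, the calls of the ascending loop of Henle (edgeR adjusted p = 0.044) and distal convoluted tubule (edgeR adjusted p = 0.029) were lost on leaving out some single libraries. The proximal tubule, which is in the total of all cells only, was called lower under both scalings. In the total of all cells, macrophages, NK cells, podocytes, mesangial and mural cells and principal, intercalated and connecting tubule cells had a positive log2 difference without TMM factors and a negative one with them.

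**Figure D1:**
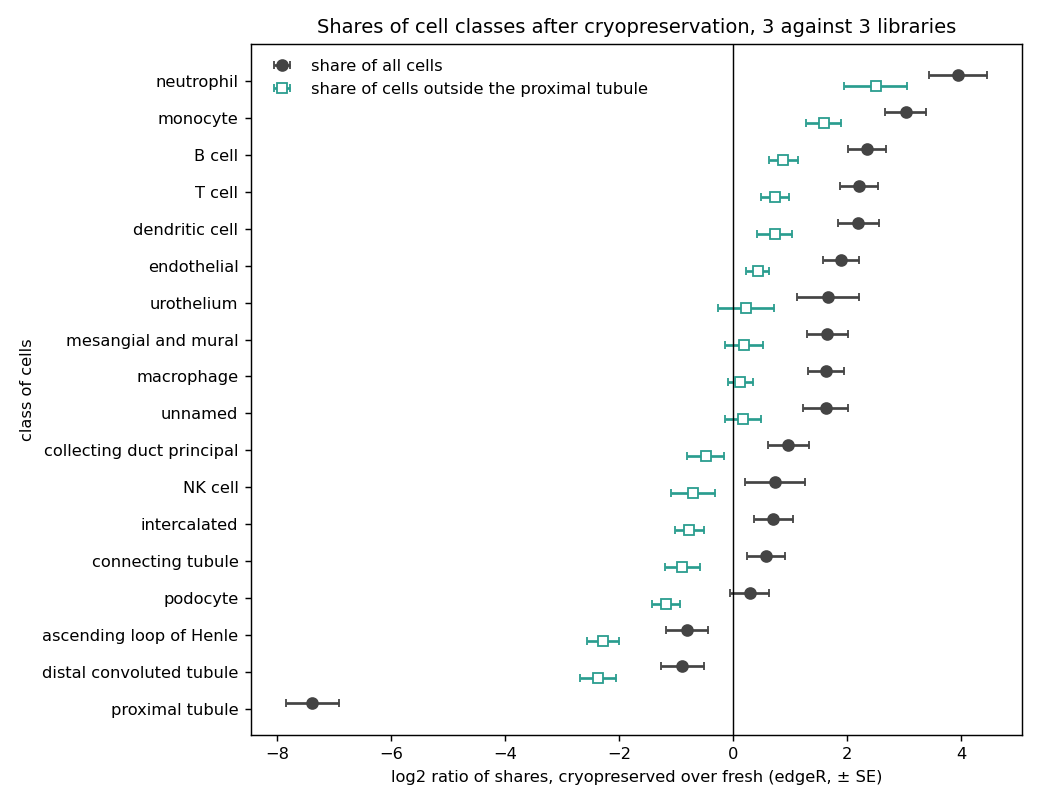
Log2 ratio of each class's share of cells, cryopreserved over fresh, for the total of all cells and for the total outside the proximal tubule. The standard error was derived from the F statistic of edgeR's quasi-likelihood test (3 libraries per group). The proximal tubule lies at -7.38, and monocytes and neutrophils lie above 0 in both totals.

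The cells that remained carried other transcript levels. Genes were tested within each class on UMIs summed per library, in the 14 classes with at least 10 cells in at least 2 libraries of each group. Of 27677 pairs of a gene and a class, edgeR's quasi-likelihood test called 1022 higher (3.69%) and 1002 lower (3.62%) after cryopreservation at a Benjamini-Hochberg adjusted p under 0.05. They came from 432 genes higher and 458 genes lower in at least 1 class. Macrophages had 185 higher (6.25%) and 302 lower (10.2%) of 2958 genes tested, endothelial cells 197 higher (3.84%) and 162 lower (3.16%) of 5134, and monocytes 150 higher (7.04%) and 79 lower (3.71%) of 2132. Dendritic cells had 110 higher (7.17%) and 46 lower (3%) of 1535, B cells 105 higher (8.16%) and 106 lower (8.24%) of 1287, and T cells 95 higher (6.21%) and 67 lower (4.38%) of 1529. Among epithelial classes, intercalated cells had 70 higher (3.16%) and 85 lower (3.84%) of 2216, the connecting tubule 49 higher (2.66%) and 51 lower (2.77%) of 1841, podocytes 12 higher (0.624%) and 28 lower (1.46%) of 1924, and principal cells 11 higher (0.674%) and 15 lower (0.919%) of 1632. The distal convoluted tubule had 6 higher (0.483%) and 8 lower (0.644%) of 1243 and the ascending loop of Henle 5 higher (0.29%) and 7 lower (0.406%) of 1726. Mesangial and mural cells had 14 higher (1.07%) and 22 lower (1.68%) of 1311 and the unnamed cluster 13 higher (1.08%) and 24 lower (1.99%) of 1209. Monocytes and the unnamed cluster rest on 2 fresh libraries, and the ascending loop of Henle on 2 cryopreserved ones, since the remaining library had fewer than 10 cells of the class. Counts of calls also depended on single libraries, with 621 pairs called higher, against 1022, without fresh replicate 2 and 566 without cryopreserved replicate 2.

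The files list many genes at 0 throughout a library, and the authors kept only genes found in a minimum number of cells. Between 89 and 131 genes per library are nonetheless present in fewer cells than that minimum of 10. Of the genes discussed below, Fosb is listed at 0 in all 3 fresh libraries, Fos, Atf3, Egr1 and Ccl3 in fresh replicate 1, Tnf, Cxcl2 and Ifng in all 3 fresh libraries, Hbb-bt in all 3 cryopreserved libraries, and Hba-a2 and Hbb-bs in cryopreserved replicate 1. The cryopreserved shares of hemoglobin given below include these zeros. Gja5 is also listed at 0, in fresh replicate 1 and in cryopreserved replicates 1 and 3. Such a value need not be a measured 0, and no fold is given against a group at 0.

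Each of the 17 stress-response-related genes of the study was called higher in some classes of cryopreserved cells, from 2 classes for Hspb1 to 13 for Fos, and podocytes had 1 of 8 tested genes called. The study chose them as known stress genes that were higher after warm than after cold dissociation in this series, so their direction is not independent evidence. Levels are given as UMIs per 10000 UMIs of the class in a library, and log2 differences are on the TMM scale of the fit. In 170 of the 238 pairs of a gene and a class, all 3 cryopreserved levels lay above all 3 fresh levels, and in 0 pairs all lay below. Over every gene with a UMI in the class, the shares were 5.75% above and 8.78% below. Of the 168 pairs with enough UMIs to be tested, 119 were called higher and 0 lower, with a median log2 difference of 2.01 against -0.02 over all pairs. With pairs at 0 in every fresh library set at a floor of 3 UMIs over the group, and Fosb left out, the median was 1.90. Genes that passed the filter only through the cryopreserved libraries had to differ, so the summed level of all 17 genes is the fairer measure.

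That summed level was higher in cryopreserved cells in all 14 classes, without overlap (exact p = 0.1 in each). Myeloid cells were the highest. In macrophages the level was 27.0, 20.004 and 22.9 in the fresh and 151, 174 and 169 in the cryopreserved libraries, 7.07 times as high. In monocytes it was 34.3, 24.4 and 25.5 against 205, 159 and 263 (7.44 times), and in dendritic cells 30.5, 26.7 and 24.7 against 184, 174 and 206 (6.89 times). Lymphocytes and the vessel wall followed. T cells went from 30.8, 28.9 and 24.8 to 121, 99.9 and 129 (4.15 times), B cells from 37.2, 27.8 and 23.2 to 112, 88.0 and 128 (3.72 times), and endothelial cells from 35.3, 34.3 and 33.6 to 114, 123 and 135 (3.60 times).

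Among epithelial cells, intercalated cells went from 21.8, 21.5 and 21.8 to 51.8, 55.2 and 41.6 (2.28 times) and the ascending loop of Henle from 18.8, 15.9 and 15.8 to 58.7, 32.6 and 20.01, where the highest value is of cryopreserved replicate 1 with 9 cells and replicate 3 lay just above the fresh libraries. Podocytes went from 34.4, 33.0 and 39.5 to 43.2, 44.3 and 48.2 (1.27 times), and the connecting tubule from 20.8, 18.1 and 20.8 to 21.6, 25.6 and 27.4 (1.25 times). The distal convoluted tubule went from 19.9, 19.3 and 19.9 to 24.8, 28.1 and 45.5 (1.66 times). Principal cells went from 25.0, 27.6 and 25.7 to 47.4, 32.5 and 51.6 (1.68 times). The order of these classes was not tested, and several classes were made up of clusters in different proportions in the groups: macrophages, intercalated cells, the ascending loop of Henle, the connecting tubule (cluster 33 held 21.26% of fresh and 40.96% of cryopreserved cells) and endothelial cells (cluster 19 held 17.19% and 28.08%). Cluster 6 held 49.18% of fresh and 85.93% of cryopreserved macrophages, and the rest of the fresh ones lay mainly in a cluster with fewer UMIs per cell. Within cluster 6 alone, a comparison added after seeing the data, all 15 tested stress genes were called higher.

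**Figure D2:**
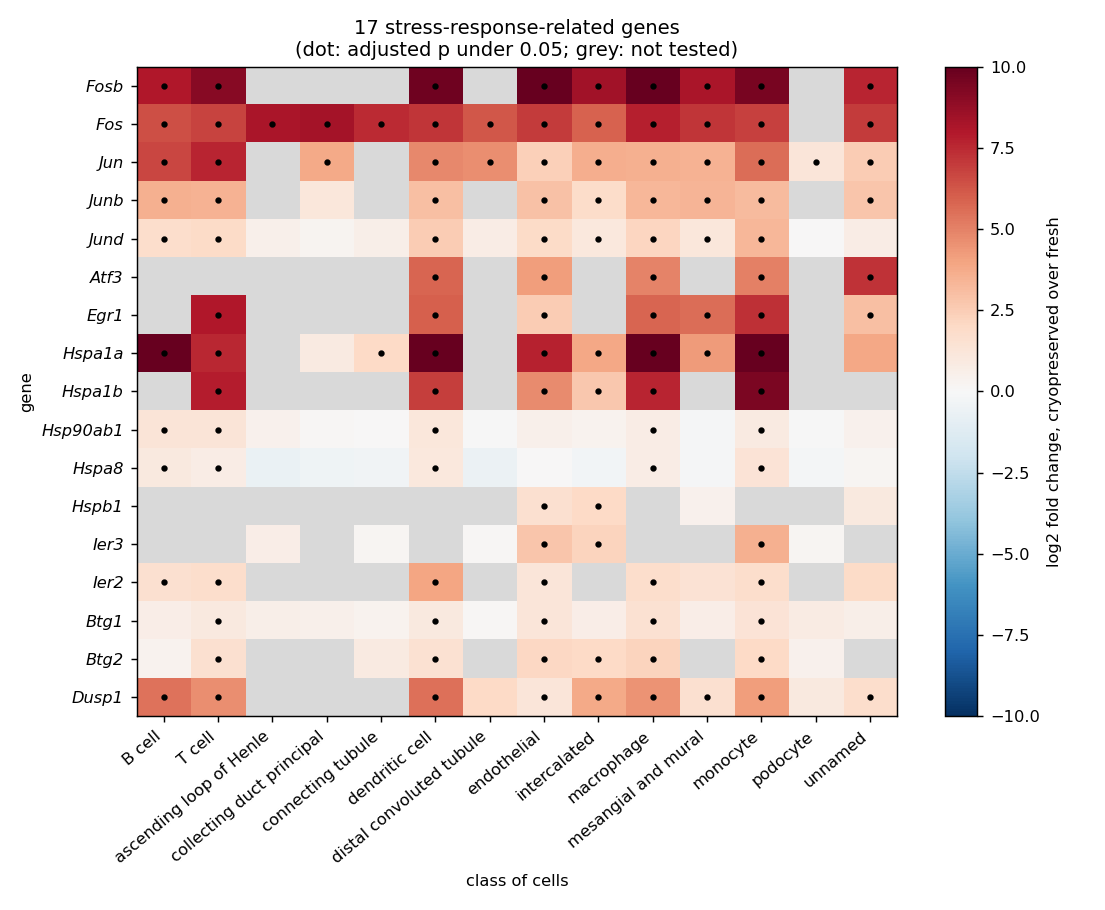
Log2 difference, cryopreserved minus fresh, of the 17 stress-response-related genes (rows) in 14 classes (columns), from edgeR's quasi-likelihood fit. A dot marks adjusted p under 0.05, grey marks pairs that were not tested, the colour scale ends at 10 in either direction, and values of genes at 0 in every fresh library depend on the prior count of the fit. Dots are frequent in the leukocyte and endothelial columns, though not every pair there has one. They are rare in several epithelial columns, among them podocytes, connecting tubule, ascending loop of Henle and distal convoluted tubule.

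AP-1 genes were called higher in most classes. Fos, which encodes the c-Fos subunit, was separate between the groups in all 14 classes. In endothelial cells its level was 0, 0.139 and 0.0639 in fresh and 10.1, 13.5 and 11.9 in cryopreserved libraries (log2 difference 6.97 ± 0.32 SE, adjusted p = 5.26e-11). In macrophages it was 0, 0.127 and 0.0764 against 17.8, 19.8 and 20.1 (7.75 ± 0.34, adjusted p = 6.45e-14), and in T cells 0, 0.216 and 0.069 against 12.4, 12.5 and 15.1 (6.76 ± 0.41, adjusted p = 2.67e-10). Podocytes had less, at 0 in each fresh library and 1.84, 2.61 and 0.678 in the cryopreserved ones. Every cryopreserved library held Fos in each class, and the fresh libraries had 55 Fos UMIs in the 3 libraries together against 9007 in the cryopreserved ones. With so few fresh UMIs, Fos passed the filter in these classes only through the cryopreserved libraries, so the p-values are not independent support. Fosb, a close relative, was at 4.05, 5.63 and 3.74 in cryopreserved macrophages.

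Jun, the partner of Fos, was already present in fresh cells. Its level was 2.31, 2.04 and 1.43 in fresh and 11.3, 10.3 and 9.43 in cryopreserved endothelial cells (2.38 ± 0.18, adjusted p = 2.91e-08), and 1.63, 1.11 and 0.968 against 14.7, 15.1 and 14.7 in macrophages (3.52 ± 0.21, adjusted p = 1.59e-11). In podocytes it went from 1.86, 1.41 and 1.28 to 3.22, 4.08 and 3.48 (1.19 ± 0.22, adjusted p = 0.00137), the only 1 of the 17 genes called in that class, of 8 tested. Junb followed Jun, with 1.44, 1.78 and 0.852 against 11.8, 11.7 and 8.89 in endothelial cells (2.91 ± 0.22). Jund, another member of the family, went from 2.36, 2.12 and 1.75 to 7.70, 8.65 and 7.73 in the same cells (1.89 ± 0.16). In podocytes Jund was at 8.31, 7.83 and 6.00 in fresh and 8.86, 9.39 and 6.61 in cryopreserved libraries, which overlap (0.07 ± 0.19, adjusted p = 0.93).

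Egr1, Atf3 and Dusp1 were among the other genes of the list called higher in macrophages. Egr1, a zinc finger transcription factor, was at 0, 0.0637 and 0.127 in fresh and 5.49, 5.38 and 4.28 in cryopreserved macrophages (5.83 ± 0.38). Atf3, a stress-induced repressor of transcription, was at 0, 0.127 and 0.204 against 3.63, 5.58 and 4.46 (4.94 ± 0.38). Dusp1, a phosphatase that switches off MAP kinases, was at 0.525, 0.319 and 0.408 against 8.55, 11.6 and 10.2 (4.51 ± 0.25, adjusted p = 8.69e-12). Each of these was separate between the groups. Egr1 and Atf3 passed the filter in macrophages only through the cryopreserved libraries. Of the broader list of 37 immediate-early genes, 26 could be tested in at least 1 class, and 132 of 191 pairs were called higher and 0 lower (median log2 difference 1.89, or 1.79 with the floor). Over all pairs, 3.69% were higher and 3.62% lower. Many of the 132 calls repeat genes of the 17, such as 13 of Fos, 12 of Jun and 9 each of Fosb, Junb and Dusp1. In 16 of the 191 pairs a group was at 0, and such pairs passed the filter only through the other group. Further pairs with few fresh UMIs, such as Jun in T cells with 1 against 311, also passed only through the cryopreserved libraries. The count therefore supports nothing further. Zfp36, which encodes an RNA decay factor, and Klf4, a transcription factor, were called in each of the 6 classes where they were tested. Klf2, which endothelial cells express under flow, was called in 3 of 7 classes. Its level was 15.3, 15.8 and 12.4 in fresh and 16.0, 15.5 and 16.8 in cryopreserved endothelial cells, which overlap (0.09, adjusted p = 0.85), while macrophages went from 0.631, 0.669 and 0.841 to 4.77, 7.74 and 6.44 (2.99).

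Hspa1a, which encodes inducible Hsp70, had 144 UMIs in the fresh and 10963 in the cryopreserved libraries, the most of the 17 genes after cryopreservation. In macrophages it was at 0, 0.0319 and 0.051 in the fresh and 36.7, 41.6 and 43.4 in the cryopreserved libraries. That is 3 UMIs against 4260, a ratio of 1213 with an exact counting interval of 415 to 5886 (adjusted p = 1.56e-15). The interval pools the libraries of a group and covers counting error only. In endothelial cells it was at 0.154, 0.0595 and 0.0426 against 14.3, 14.2 and 18.9 (7.67 ± 0.30, adjusted p = 7.27e-12). With so few fresh UMIs, Hspa1a passed the filter in both classes only through the cryopreserved libraries. These p-values are therefore not independent support. Lymphocytes were uneven, with 6.09, 1.71 and 22.9 in cryopreserved B cells, where each fresh library was at 0, and 4.00, 2.62 and 14.6 in cryopreserved T cells against 0.147, 0 and 0. Cryopreserved replicate 3 was the highest of the 6 libraries in 10 of 14 classes for Hspa1a and for Hspa1b, and over the other 15 genes in 1 class (Fosb) to 9 classes (Hspb1), with 7 for Fos, 6 for Dusp1 and 5 for Jun, Atf3 and Ier2. For Hspa1a, principal cells were at 0.966, 1.08 and 1.17 against 1.17, 1.48 and 4.65 and were not called (0.89 ± 0.44, adjusted p = 0.42).

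The co-chaperone Dnajb1, which works with Hsp70, was called higher in each of the 6 classes where it was tested. In macrophages it had 0.158, 0.0956 and 0.051 in fresh against 4.95, 8.19 and 9.37 in cryopreserved libraries (6.2 ± 0.37, adjusted p = 2.26e-11). These fresh levels rest on few UMIs, so Dnajb1 passed the filter there only through the cryopreserved libraries, and the call is not independent support. Hsp90aa1, the inducible Hsp90, was called in 6 of 14 classes and went from 0.631, 0.733 and 1.15 to 6.27, 7.59 and 9.40 in macrophages (3.02 ± 0.26). Hsp90ab1 went from 5.46, 4.24 and 4.99 to 8.19, 8.92 and 9.90 in macrophages (0.78 ± 0.18, adjusted p = 0.0036) and had 7.61, 7.47 and 10.3 against 11.3, 12.0 and 14.6 in endothelial cells (0.48 ± 0.20, adjusted p = 0.18). Hspa8, the constitutive Hsc70, was at 6.48, 5.19 and 7.16 against 6.62, 6.09 and 7.68 in endothelial cells, which overlap (0.03, adjusted p = 0.97). It was called in 5 of 14 classes, among them dendritic cells (1.02 ± 0.16). The mitochondrial chaperones Hspd1 and Hspe1 were called higher in 0 of 13 and 0 of 14 classes, and Hspd1 was lower in 1. Over the list of 25 heat shock chaperones, 44 of 182 pairs were higher and 2 lower, with a median log2 difference of 0.00. The shares over all pairs were 3.69% higher and 3.62% lower. Many of the 44 calls repeat stress-response-related genes of the study, with 9 of Hspa1a, 6 of Hspa1b and 5 each of Hsp90ab1 and Hspa8. The count is therefore not a separate result.

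**Figure D3:**
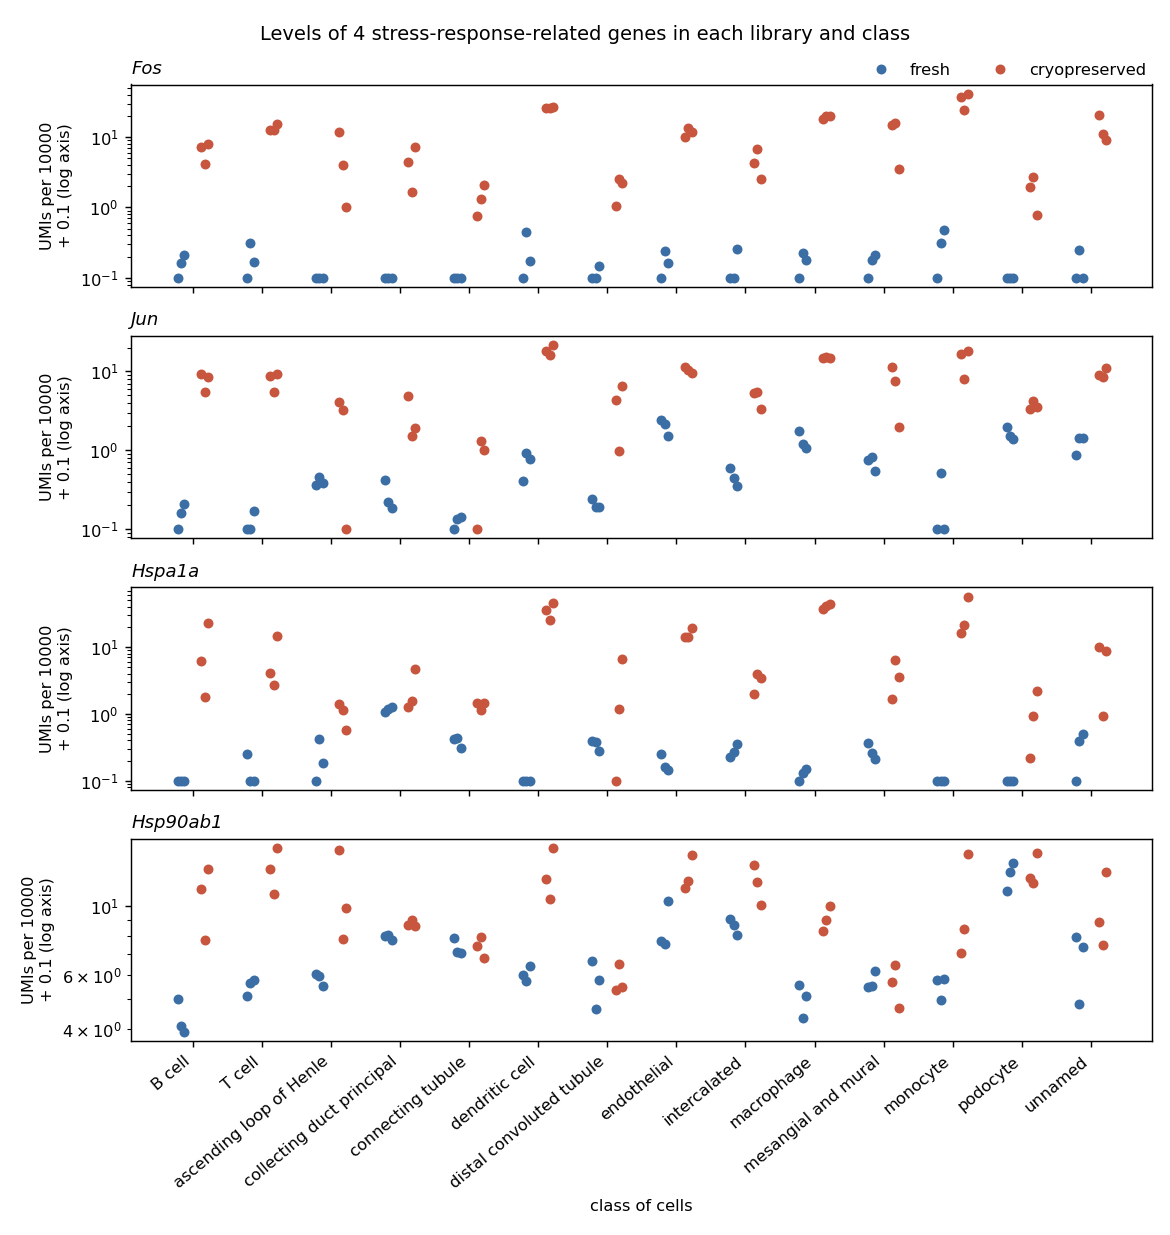
UMIs per 10000 (plus 0.1, log axis) of Fos, Jun, Hspa1a and Hsp90ab1 in each library and class, with fresh and cryopreserved libraries in different colours. In macrophages Fos rises from at most 0.127 to at least 17.8 and Hspa1a from at most 0.051 to at least 36.7, while Hsp90ab1 goes from at most 5.46 to at least 8.19.

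The 250 bases before the start of 4 of these genes show which known motifs they share. They are given 5′ to 3′ from RefSeq for GRCm38.p6, with motifs in capitals: TGACG, the core of the cyclic AMP response element, GAANNTTC, a pair of heat shock element units, and TATAAA, the TATA box. The windows are chr12:85473640-85473889 on the plus strand for Fos, chr7:19310046-19310295 on the minus strand for Fosb, chr4:95052223-95052472 on the minus strand for Jun and chr17:34972157-34972406 on the minus strand for Hspa1a.
Fos: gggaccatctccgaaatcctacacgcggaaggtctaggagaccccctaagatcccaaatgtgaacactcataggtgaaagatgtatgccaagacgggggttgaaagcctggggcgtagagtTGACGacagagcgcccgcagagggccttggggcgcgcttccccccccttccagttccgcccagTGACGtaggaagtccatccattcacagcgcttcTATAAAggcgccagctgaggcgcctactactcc
Fosb: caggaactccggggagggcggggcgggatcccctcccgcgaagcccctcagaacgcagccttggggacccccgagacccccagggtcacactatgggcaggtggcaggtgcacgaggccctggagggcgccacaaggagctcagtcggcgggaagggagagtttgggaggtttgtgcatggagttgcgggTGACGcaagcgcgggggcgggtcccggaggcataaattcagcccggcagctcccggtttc
Jun: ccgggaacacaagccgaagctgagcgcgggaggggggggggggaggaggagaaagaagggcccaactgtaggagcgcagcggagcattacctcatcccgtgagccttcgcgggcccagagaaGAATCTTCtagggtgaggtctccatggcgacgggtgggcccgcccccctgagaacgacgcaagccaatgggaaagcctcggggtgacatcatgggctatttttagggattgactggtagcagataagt
Hspa1a: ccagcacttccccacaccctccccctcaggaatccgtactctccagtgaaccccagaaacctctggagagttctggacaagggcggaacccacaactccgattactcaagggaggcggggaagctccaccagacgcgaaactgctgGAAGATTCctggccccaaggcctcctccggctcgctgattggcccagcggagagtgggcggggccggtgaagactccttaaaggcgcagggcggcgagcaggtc
Both strands were searched, and the letters of a motif were matched exactly except for N. Fos had TGACG 129 and 66 bases and TATAAA 33 bases before its start, and Fosb had TGACG 60 bases before the start used here. The annotated span of Fosb is chr7:19302696-19310118, so that start and this TGACG lie inside the span. GAANNTTC lay 104 bases before the start of Hspa1a and 128 bases before that of Jun. Of 27025 mouse promoters of this length, 6.78% held GAANNTTC, 17.9% TGACG, 12.97% TATAAA and 4.43% TGACTCA, the AP-1 motif, which was in none of the 4 windows. A match of letters does not show that a factor bound there.

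Over all pairs, 3.69% were higher and 3.62% lower, and the counts of the lists are to be read beside these. In the unfolded protein and integrated stress response list, 23 of 179 pairs were higher (12.8%) and 4 lower (2.23%). Ppp1r15a, which restarts translation after stress, was called higher in 8 classes, with 0.440, 0.144 and 0 in fresh and 3.91, 2.56 and 3.88 in cryopreserved T cells (4.48 ± 0.47). Atf4, a transcription factor of the integrated stress response, was called higher in 7, with 0.315, 0.159 and 0.331 against 1.77, 1.81 and 1.48 in macrophages (2.52 ± 0.30). Both moved without overlap. Classes with few fresh UMIs of these genes, such as 0, 2 and 0 of Ppp1r15a in dendritic cells, were tested only through the cryopreserved libraries. Hspa5, the chaperone of the endoplasmic reticulum, was higher in 4 of 14 classes and lower in 2, the connecting tubule (-1.09 ± 0.27, adjusted p = 0.012) and intercalated cells (-0.77 ± 0.21, adjusted p = 0.041). Its partners Hsp90b1, Calr and Canx were called in 0 of 14 classes each.

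In the p53, growth arrest and apoptosis list, 23 of 65 pairs were higher (35.4%) and 0 lower (median 0.89). Of these calls, 6 are of Btg2, which is also one of the 17 stress-response-related genes. Others, such as Gadd45b with 1 UMI in each fresh library of dendritic cells, passed the filter only through the cryopreserved libraries, so the share supports nothing further. Gadd45b, which responds to many stresses, went from 0.257, 0.0991 and 0.128 to 2.33, 2.58 and 3.29 in endothelial cells (4.17 ± 0.28, adjusted p = 1.35e-08). With 5, 5 and 6 fresh UMIs, it passed the filter there too only through the cryopreserved libraries, so this p-value is not independent support. Cdkn1a, the p21 inhibitor of the cell cycle, was called in 3 classes, and Bax, which opens mitochondria in cell death, in 0 of 12. Genes of oxidative stress, Nrf2 targets and metallothioneins were higher in 3 (1.86%) and lower in 20 (12.4%) of 161 pairs (median -0.36). Prdx1, a peroxidase, was lower in 6 of 14 classes, with 4.88, 9.23 and 12.3 against 3.01, 3.53 and 3.34 in B cells (-1.56 ± 0.31, adjusted p = 0.0015). Proximal tubule transcripts made up 0.787, 1.09 and 1.41% of UMIs in fresh and 0.109, 0.0837 and 0.117% in cryopreserved B cells, and their part in this was not tested. The cold-inducible genes Rbm3 and Cirbp gave 1 call higher (4.0%) and 0 lower of 25 pairs, near the share over all pairs.

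Immune cells also carried transcripts of signalling proteins. Tnf, the cytokine TNF, was listed at 0 in the fresh libraries and was at 4.02, 2.76 and 2.36 in cryopreserved macrophages. The chemokine Cxcl2, which draws neutrophils, was at 9.18, 7.24 and 12.99 in cryopreserved monocytes and 1.53, 1.63 and 3.33 in macrophages. The chemokines Ccl3 and Ccl4 of macrophages were above the fresh level in each library. Ccl3 went from 0, 0.51 and 0.688 to 11.04, 11.8 and 7.01 (4.28 ± 0.39, adjusted p = 1.56e-08) and Ccl4 from 1.10, 1.82 and 2.93 to 13.7, 17.8 and 15.4 (2.80 ± 0.27, adjusted p = 4.21e-08). Both are among the leading genes of cluster 6, which holds more of the cryopreserved macrophages. Nfkbia, the inhibitor that NF-kB induces, went from 0.525, 0.956 and 0.306 to 6.09, 6.30 and 4.37 (3.12 ± 0.30). In T cells Ifng was at 2.75, 0.873 and 1.45 after cryopreservation, and Cd69, an early activation marker, went from 0.734, 0.144 and 0.276 to 2.41, 1.99 and 2.97 (2.91 ± 0.40). Ifng and Cd69 are outside the lists and were chosen after their values were seen. Over the list of NF-kB genes and chemokines, 19 of 49 pairs were higher (38.8%) and 1 lower (median 0.69, or 0.51 with the floor). In 8 of these 19 pairs every fresh library was at 0, so that they passed the filter only through the cryopreserved libraries. Pairs with few fresh UMIs, such as 0, 0 and 1 of Ccl2 in monocytes, did so too. The share therefore supports nothing further. Interferon-stimulated genes were higher in 4 (7.41%) and lower in 0 of 54 pairs, against 3.69% and 3.62% of all pairs.

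Transcripts of red blood cells and of the proximal tubule were lower in most other classes after cryopreservation. Hemoglobin genes, expressed in red blood cells, were called lower in 52 of 54 pairs and higher in 0 (median log2 difference -7.70, or -7.55 with the floor and without Hbb-bt where it was at 0). Hba-a1 went from 20.1, 27.8 and 72.5 to 0.0268, 0.0702 and 0.215 in endothelial cells (-8.76 ± 0.62) and from 23.6, 22.4 and 14.8 to 0.060, 0.0251 and 0.157 in macrophages (-8.06 ± 0.34). Genes of the proximal tubule were called lower in 185 of 230 pairs and higher in 0 (median -3.93, or -3.81 with the floor). Among them, Gpx3, a secreted glutathione peroxidase, and Kap, an androgen-regulated kidney protein, were lower in 13 classes each.

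Over all cells outside the proximal tubule, transcripts of the 25 proximal tubule genes were 1.08, 1.07 and 1.46% of UMIs in fresh and 0.225, 0.267 and 0.300% in cryopreserved libraries. Hemoglobin was 0.447, 0.591 and 1.32% against 0.000441, 0.00383 and 0.00595%. Both were separate in each of 11 classes with at least 10 cells in every library (exact p = 0.1). The share of hemoglobin lay between 0.188 and 2.72% in fresh and between 0 and 0.0118% in cryopreserved classes. The ascending loop of Henle, which had 9 cells in cryopreserved replicate 1, is outside these 11 classes, and its proximal tubule transcripts overlapped, with 1.19, 0.943 and 1.33% in fresh and 1.17, 0.800 and 0.666% in cryopreserved libraries. The number of proximal tubule cells fell in the same libraries, and its part in the lower calls was not tested. The list member Fxyd2 still had 7040 UMIs in the cryopreserved libraries, against 150745 in the fresh ones, and Dbi had 2401 against 51488. How far the other classes express list members themselves was not tested.

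**Figure D4:**
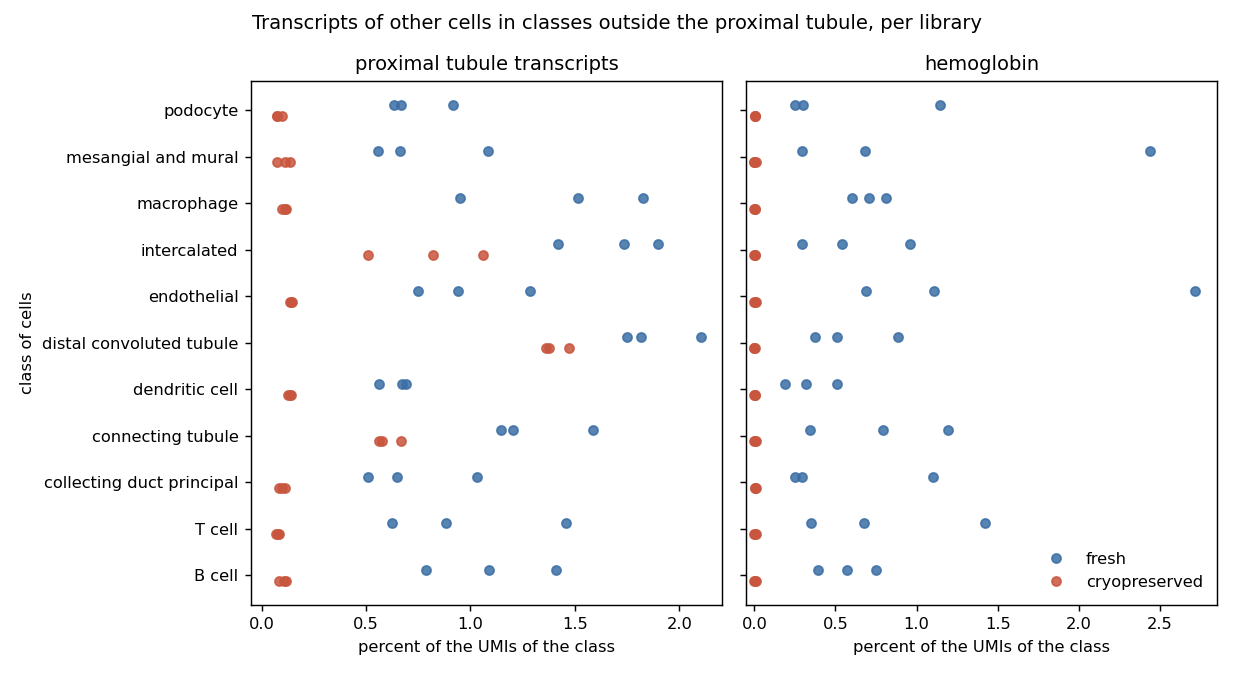
Share of UMIs from the proximal tubule list and from hemoglobin genes in each library, for 11 classes outside the proximal tubule. Fresh libraries are above cryopreserved libraries in each class for both lists, with hemoglobin at or below 0.0118% in all cryopreserved classes.

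Ribosomal protein genes were higher in 230 and lower in 2 of 1184 pairs (median 0.44), and nuclear-retained and abundant noncoding RNAs in 28 and 1 of 62 (median 0.99). Of these 28 calls, 14 are of Gm10076 and 7 of Gm42418, whose levels are uncertain because they share sequence or reads with others. Malat1, a nuclear-retained RNA, was called higher in 1 of 14 classes, and Neat1, another, was higher in 2 and lower in 1. Mitochondrially encoded genes were lower in 36 and higher in 18 pairs of 179 (median -0.41), with mt-Cytb lower in 5 of 14 classes. Among the list of the actin cytoskeleton, 10 of 259 pairs (3.86%) were higher, near the 3.69% of all pairs, and 1 lower, with Vim, an intermediate filament gene, at 1.75, 2.30 and 1.56 against 4.77, 5.98 and 5.63 in endothelial cells (1.45 ± 0.18). Endothelial cells were made up of the same clusters in other proportions, since a cluster led by Sox17, Fbln5 and Gja4 held 11.6, 18.2 and 18.2% of them in fresh and 21.8, 30.2 and 30.3% in cryopreserved libraries. The part of this makeup in the values of the genes that follow was not tested. Mgp, a matrix protein of arteries, went from 0.411, 0.317 and 0.554 to 2.07, 5.91 and 4.44 in endothelial cells (3.18 ± 0.35, adjusted p = 4.06e-06). In that class 4 of 9 arterial genes were higher and 0 lower, 1 of 11 glomerular endothelial genes was higher and 0 lower, and 0 of 8 peritubular endothelial genes were higher and 1 lower, against 3.84% and 3.16% of all genes of the class. Of the 4 arterial genes, Gja4 and Fbln5 also lead the cluster named above, so their count is not independent of its share. The arterial genes Gja5 (-1.09) and Efnb2 (-0.16) had negative differences and were not called. The value of Gja5 rests on libraries where it is listed at 0, fresh replicate 1 and cryopreserved replicates 1 and 3. Elsewhere it was level, at 0.377 and 0.384 in fresh and 0.368 in cryopreserved libraries. Over all classes, arterial genes were higher in 4 and lower in 0 of 18 pairs, glomerular ones in 4 and 1 of 24 and peritubular ones in 1 and 1 of 16. Genes of hypoxia and glycolysis gave 1 higher and 3 lower of 127, and genes of cholesterol synthesis 0 and 2 of 22.

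The change after cold dissociation was set against cryopreservation of warm-dissociated cells from the same strain and of cold-dissociated cells from female Balb/c mice of 15 weeks, stored for 2 weeks. In the interaction test of edgeR over 11 shared classes, 103 of 27150 pairs (0.379%) had a higher log2 change after cold than after warm dissociation and 42 (0.155%) a lower one. The 17 stress genes were chosen for a high level after warm dissociation, which is part of this contrast, so their change is only described, with median log2 changes of 2.26 after cold and 0.90 after warm dissociation. By class these medians ran from 4.72 and 0.17 in dendritic cells to 2.03 and 2.02 in the distal convoluted tubule. Against Balb/c, 130 of 41646 pairs (0.312%) had a higher change and 94 (0.226%) a lower one. The medians of the stress genes were 1.82 and 0.28, and this contrast holds the cold fresh libraries that the choice of the genes used.

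The levels of Fos are given as a description. In endothelial cells Fos was at 0 to 0.139 in cold fresh and 10.1 to 13.5 in cold cryopreserved libraries. Warm-dissociated cells were at 11.7 to 15.4 when fresh and at 32.0 to 36.1 after cryopreservation, so they began near the level that cold-dissociated cells reached. Balb/c endothelial cells were at 0 to 0.148 when fresh and at 0.118 to 0.280 after cryopreservation. In macrophages Fos was at 17.8 to 20.1 in cold cryopreserved C57, 33.1 to 46.2 in warm cryopreserved C57 and 0.625 to 1.83 in cryopreserved Balb/c libraries. Strain, sex, age, chemistry, time in storage and spin speed all differ from the Balb/c experiment and cannot be told apart.

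**Figure D5:**
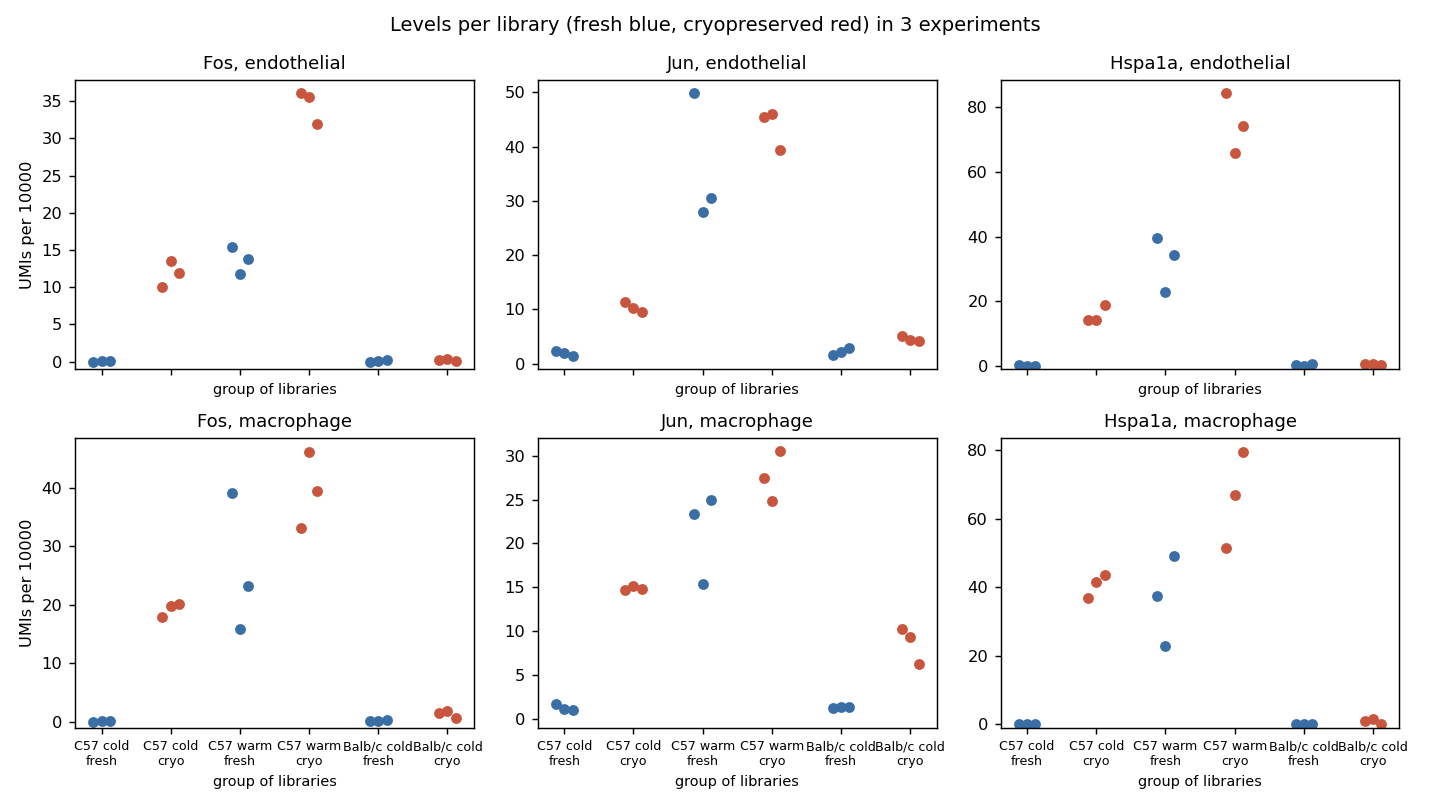
UMIs per 10000 (linear axis) of Fos, Jun and Hspa1a in endothelial cells and macrophages of 6 groups, 3 libraries each. Fos in endothelial cells lies at 0 to 0.139 in C57 cold fresh, 10.1 to 13.5 in C57 cold cryopreserved and 0.118 to 0.280 in Balb/c cryopreserved libraries.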

How the data were processed

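The 6 libraries were compared as deposited. Per the labels and methods of the study, the authors aligned 10x reads to GRCm38/mm10 with Cell Ranger 2.1.1, called cells, kept cells within limits on genes and mitochondrial share and kept genes found in at least 10 cells. The deposited values are raw UMI counts per gene and cell. Libraries held 1816117 to 8051722 UMIs. Of 13392 and 13347 genes listed for fresh and cryopreserved cells, 13131 are shared and were used.

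The 12 C57 fresh and cryopreserved libraries were clustered together (scanpy 1.11.5, 2000 variable genes, 30 components, 20 neighbours, Leiden resolution 2) and named from marker lists, at least 3 markers each. Doublets were simulated and marked at 0.8% per 1000 cells (411 fresh and 35 cryopreserved cells) and kept. UMI counts were summed per library and class and tested with edgeR 4.0.16 (quasi-likelihood, TMM, filterByExpr, R 4.3.3). Errors of log2 differences are given as SE, with 3 libraries per group. Each was derived as the size of the difference divided by the square root of the quasi-likelihood F statistic. Scripts were tested on simulated data. Single values had exact permutation tests. Members, markers and lists were chosen with earlier results of these data known. Named genes were list members, the 15 genes called in most classes each way, and the 5 largest changes per class and direction with at least 50 UMIs. Same-numbered libraries share a suspension, so blocked fits were run. The deviations of such pairs correlated between -0.016 and 0.220 over 11 classes. The suspensions came from littermates, and p-values measure the spread between them.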

Additional observations from a re-analysis of the deposited data

Results flagged for a closer look

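The shares of several classes changed differently here than in the experiments most like this one, by the interaction test of edgeR on numbers of cells. Against cryopreservation after warm dissociation, the log2 change of the share of all cells was lower by these differences: -1.65 for the ascending loop of Henle, -3.77 for principal cells and -2.04 for the distal convoluted tubule. In this total principal cells rose in both experiments, by 0.95 here and by 4.72 ± 0.76 SE after warm dissociation. The ascending loop of Henle (-0.81 and 0.84) and distal convoluted tubule (-0.91 and 1.12) fell here and rose after warm dissociation. Outside the proximal tubule the differences were -1.32, -3.44 and -1.73. Principal cells were there at -0.52 here and 2.92 ± 0.72 SE after warm dissociation. Only 5 of the 6 warm libraries had at least 10 principal cells. Against the Balb/c experiment, the connecting tubule differed by 2.94 and the proximal tubule by -4.21 in the total of all cells. In the total outside the proximal tubule, B cells differed by -2.05, the connecting tubule by 2.50 and intercalated cells by -1.36.

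Fos, Hspa1a and Jun differed from the warm-dissociated experiment in the interaction test on genes. These genes were chosen for a high level in warm against cold fresh cells, which is part of that contrast, so the direction is partly set by the choice. By the same test, 0 of 17 stress genes had a higher change in the distal convoluted tubule and 0 of 17 in intercalated cells. Over all tested genes it was 0 of 1323 and 0 of 2826 in these classes, so the absence is not particular to stress genes. The difference of the log2 changes for Fos was 5.58 in T cells, 5.46 in endothelial cells and 7.04 in macrophages. For Hspa1a it was 7.65, 6.27 and 9.0, and for Jun 6.91, 1.93 and 3.05 in the same classes. Against the Balb/c experiment it was 5.44 for Fos in endothelial cells and 4.10 in macrophages, 6.62 for Hspa1a in endothelial cells and 1.14 for Jun in endothelial cells. Several of these rest on fresh libraries with 1 to 3 UMIs of the gene, such as Hspa1a in macrophages, where the fitted size depends on the prior count.

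Retnlg, a gene of neutrophils, had 254 UMIs in the cryopreserved libraries and is not listed for the fresh ones, where the neutrophil class had 13 cells.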

How the results depend on the processing

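Shares depended on the scaling. With TMM factors on the numbers of all cells, log2 differences turned negative for NK cells (-0.89), principal cells (-0.71), connecting tubule (-1.10), intercalated cells (-0.95), macrophages (-0.078), mesangial and mural cells (-0.030) and podocytes (-1.36), and were no longer called for T cells (0.56), dendritic cells (0.57), endothelial cells (0.23), the unnamed cluster (0.00046) and urothelium (0.034). Outside the proximal tubule the same setting turned macrophages (-0.13), mural cells (-0.071), the unnamed cluster (-0.052) and urothelium (-0.0088), lost B cells (0.63) and T cells (0.51) and gained NK cells (-0.94). TMM assumes that most classes keep their number. The exact permutation test cannot pass 0.05 with 3 against 3 and gave p = 0.1 for each called class, or 0.2 for principal cells of all cells. At resolution 1, T cells outside the proximal tubule were at 0.59 and not called.

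On leaving out each library in turn, differences for all cells ranged from -0.98 to -0.59 for the ascending loop of Henle, -1.29 to -0.72 for the distal convoluted tubule, 0.62 to 1.24 for principal cells, 0.19 to 0.89 for the connecting tubule, 0.52 to 0.88 for intercalated cells and 1.03 to 1.96 for urothelium. Outside the proximal tubule they ranged from 0.70 to 1.04 for B cells, 0.60 to 0.87 for T cells, -1.29 to -0.59 for the connecting tubule, 0.45 to 0.97 for dendritic cells, -0.87 to -0.58 for intercalated cells, -0.015 to 0.21 for macrophages, -0.13 to 0.49 for mural cells, -0.038 to 0.35 for the unnamed cluster and -0.41 to 0.54 for urothelium. Pairs of a gene and a class called higher ranged from 566 to 1117. Of all cells, the ascending loop call was lost without fresh replicate 2 or 3 or cryopreserved replicate 1 (-0.59) or 2, and the distal convoluted tubule call without fresh replicate 2 or 3 or cryopreserved replicate 1 or 3 (-0.72). Principal cells were lost without fresh replicate 3 or cryopreserved replicate 2, intercalated cells without any 1 library but cryopreserved replicate 1, and urothelium without cryopreserved replicate 2, and the connecting tubule was gained without cryopreserved replicate 1. Directions outside the proximal tubule turned for macrophages without fresh replicate 2, mural cells without cryopreserved replicate 1, the unnamed cluster without cryopreserved replicate 3 and urothelium without cryopreserved replicate 2.

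Pairs called higher numbered 1022, with 658 by DESeq2 1.42.0, 620 with a log2 difference of at least 1 and 79 at the study's thresholds (a natural log difference of at least 1 and detection in a share of at least 0.5 of cells). Pairs called lower numbered 1002, with 1854 without a filter on low counts and 74 at the study's thresholds. Without that filter, 186 pairs had a higher and 173 a lower change than after warm dissociation, and 320 and 229 than in Balb/c. With the suspension as a replicate block, 1458 pairs were higher and 1303 lower, dendritic cells outside the proximal tubule were called (0.78), and no other call on shares changed. All calls on the 17 stress genes and hemoglobin held with the block and with RLE factors, while 11 were lost by DESeq2 and 2 to 10 on leaving out 1 library. In settings chosen after seeing the data, 2 were lost with cells of at least 1000 UMIs and 0 among genes with a UMI in each library. Among calls on all named genes, 1 was lost with the block, 4 with RLE factors, 35 by DESeq2 and 7 to 57 on leaving out 1 library. The causes were not tested.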

Other observations

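Some genes that were called higher share sequence or reads with a near-identical or overlapping gene, so their level is uncertain. Gm10076, called higher in 14 of 14 classes, was at 5.76, 5.83 and 6.82 UMIs per 10000 in fresh and 15.5, 24.9 and 25.2 in cryopreserved endothelial cells (log2 difference 1.74), while the ribosomal gene Rpl41, which it resembles, was at 32.1, 36.5 and 38.4 against 43.6, 60.9 and 54.5 (0.48, edgeR adjusted p = 0.19). The mitochondrial genes mt-Atp8 and mt-Atp6, which overlap on the genome, moved in opposite directions. In endothelial cells mt-Atp8 went from 5.29, 4.16 and 4.37 to 7.16, 9.05 and 8.89 (0.80) and mt-Atp6 from 288, 422 and 368 to 230, 177 and 165 (-1.01). Over classes, mt-Atp8 was called higher in 11 of 14 and mt-Atp6 lower in 9 of 14. Gm42418, which lies over ribosomal RNA repeats, went from 3.52, 2.95 and 2.14 to 18.5, 18.2 and 26.9 in intercalated cells (2.80).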
